A study of Mus musculus with 6 samples.

Results

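Apolipoproteins are the protein components of plasma lipoproteins, and their transcripts were examined in medullary thymic epithelial cells of wild-type mice and of mice with both copies of Aire disrupted. A list of 10 apolipoprotein genes named for this family was matched to the annotation of the array, and each probe set (the group of oligonucleotides that reads 1 transcript) that named 1 of them and no other gene was taken. This gave 11 probe sets for 9 genes, out of 12422 probe sets and 8251 genes. Apoa1, Apoa4, Apob, Apoc1, Apoc2, Apod and Apoh each had 1 probe set, and Apoa2 and Apoe had more than 1. Apoc3 has no probe set in the annotation and was dropped. The members were divided by where they are known to be made: Apoa1, Apoa2, Apoa4, Apob, Apoc1, Apoc2 and Apoh, secreted chiefly by liver or gut, against Apoe and Apod, which many tissues make.

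There were 3 arrays per genotype. For each, thymi of 5 F2 mice of a B6/129 cross were pooled, males with females, at an age of 3 to 5 weeks. Wild-type mice carried intact Aire and Aire-deficient mice (Aire -/-) carried no intact copy; the disrupted exons are not stated, and the labels name no treatment. Sorted cells were negative for CD45, positive for G8.8, intermediate for CDR1 and high for B7.1, and their RNA was amplified in 2 rounds with T7 polymerase. Replicates are separate pools of animals.

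Apolipoproteins wrap lipid into particles that travel in blood: apolipoprotein B forms the scaffold of chylomicrons and of very low and low density lipoproteins, apolipoprotein A-I that of high density lipoproteins, and the small C proteins exchange between particles and regulate lipases and uptake. Aire is a transcriptional regulator through which medullary epithelial cells of the thymus transcribe genes otherwise restricted to peripheral organs, so that developing T cells meet those proteins. Apolipoproteins made chiefly by liver or gut were taken as of that kind, whereas Apoe is also made by macrophages, astrocytes and many other cells. Whether each of the former is made nowhere else was not tested. The comparison therefore asked whether members made chiefly by liver or gut and broadly made members of 1 family differ in their dependence on Aire.

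Several members lie side by side in the genome. In the gene order of mouse assembly GRCm38.p6, Apoa1, Apoc3 and Apoa4 follow each other on chromosome 9, and Apoc2, Apoc4, Apoc1 and Apoe lie together on chromosome 7. The 250 bases before the annotated start of Apoa1 (GRCm38.p6, chr9:46228380-46228629, plus strand) and of Apoa4 (chr9:46240594-46240843, plus strand) are shown because these genes are neighbours, separated by Apoc3, and gave different results below. Both windows overlap no annotated gene; the sequences are from RefSeq and read 5′ to 3′.
Apoa1: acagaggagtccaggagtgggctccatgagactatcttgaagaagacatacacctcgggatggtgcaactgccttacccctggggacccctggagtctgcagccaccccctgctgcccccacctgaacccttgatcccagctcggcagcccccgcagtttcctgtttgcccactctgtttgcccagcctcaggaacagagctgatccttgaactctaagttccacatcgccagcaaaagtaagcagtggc
Apoa4: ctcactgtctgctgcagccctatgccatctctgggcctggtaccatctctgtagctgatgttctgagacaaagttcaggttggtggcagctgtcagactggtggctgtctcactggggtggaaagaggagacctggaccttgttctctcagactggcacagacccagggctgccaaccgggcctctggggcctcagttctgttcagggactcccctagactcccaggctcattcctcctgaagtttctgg

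Capitals were reserved for matches, on either strand, to the TATA box core TATAAA, the nuclear receptor half-site AGGTCA, its variant form GGGTCA, the HNF1 half-site GTTAAT, the CCAAT box with its letters CCAAT, or the GC box GGGCGG. Neither window holds any of these 6 words, so both stand wholly in lower case. Over 32851 promoter windows of 250 bases, the words were present in 12.4%, 14.0%, 11.6%, 6.43%, 33.8% and 32.7% in that order, and 25.4% of windows held none of them. GC content was 58% before Apoa1 and 57.6% before Apoa4. Of the 10 listed genes, 8 have a promoter entry. The windows of Apoa2, Apob, Apoc2 and Apoe overlap annotated transcripts and are not shown. Those of Apod and Apoh overlap no annotated gene and are not shown either. The Apod window holds none of the words, and the Apoh window holds 1 match, to AGGTCA on the opposite strand.

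Signals below are quantile-normalized intensities in arbitrary units, listed for arrays 1, 2 and 3 of a genotype. Signals under a floor of 1.8 were raised to it, and a signal under 5.53, the 40th percentile of all values, is called dim. Group values are geometric means, every SD and SE refers to log2 signal, and changes are Aire-deficient minus wild type from a limma fit over 5950 genes. Levels of different probe sets are not compared, since each binds with its own strength. The precision is limited by the number of arrays. A gene was tested if it exceeded the dim limit on at least 3 of the 6 arrays: 7 members, each through its brighter probe set, passed. Apob, Apoh and the dimmer probe sets of Apoa2 and Apoe did not.

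The Aire probe set gave 59.9, 96.4 and 138 in wild-type and 202, 297 and 211 in Aire-deficient cells, and it does not check the genotype, since the place of its probes relative to the disruption is unknown. Array quality differed. Beta-actin signal at the 3′ end relative to the 5′ end is a sign of RNA quality or amplification. This ratio was 95.8 on wild-type array 2 and 4.38 to 13.8 on the other 5. The same ratio for Gapdh was 87.9 on wild-type array 2 and 5.94 to 26.3 on the other 5. Of 18 listed markers of medullary epithelium 17 were measured and 15 tested, with a median log2 change of 0.37 and no call at an adjusted p under 0.05 (5 at an unadjusted p under 0.05). H2-Aa, H2-Ab1, Ctss, Relb and Tnfrsf11a were higher without overlap in Aire-deficient cells (H2-Ab1 653 and 1131, Ctss 544 and 923), and Epcam, the antigen of the G8.8 antibody, was lower without overlap (197 and 89.2, limma adjusted p = 0.110). Krt5 and Krt14 were dim on all 6 arrays. The summed signal of the list was 4328 to 5706 in wild type and 6044 to 7218 without Aire. A large part of it was H2-Aa (1981 and 2331), whose equal rank gave it the same normalized signal on all 3 Aire-deficient arrays. Of the 15 tested markers 5 had a log2 change below 0. Of 10 granulocyte markers 8 were tested and 6 were called lower, against 1.33% of all genes tested. Of these, Ltf, Ly6g and Ngp were dim on all 3 Aire-deficient arrays and passed the filter through wild type alone. The summed signal of the list was 329 to 844 in wild type and 93.8 to 114 without Aire. The dendritic list summed to 194 to 353 in wild type and 354 to 534 without Aire; of its 6 tested genes none was called by limma, 3 had an unadjusted p under 0.05, and Ccr7, Batf3 and Irf8 were higher without overlap. Neither the macrophage list (9 of 16 listed genes tested) nor the fibroblast list (9 of 11 listed) had a called gene; 3 genes of the former and 2 of the latter had an unadjusted p under 0.05. The part of these lists in the results below was not tested.

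Apoa1 was the member that fell. It encodes the scaffold of high density lipoprotein and the activator of the enzyme that esterifies cholesterol on it. Its signals were 43.3, 51.9 and 86.8 in wild-type cells and 11.8, 7.38 and 10.5 in Aire-deficient cells. Every wild-type array thus lay far above every Aire-deficient array, and each of the latter was still above the dim limit. The group values were 58.0 (SD 0.52, n = 3) and 9.71 (SD 0.35, n = 3), a 5.98-fold difference, and the log2 change was -2.58 ± 0.36 (SE) with a 95% interval of -3.38 to -1.78. The adjusted p was 0.00904 in the limma fit. Over all genes tested, 1.33% were called lower by this rule and 0.387% higher, and of the 7 tested members 1 was called lower and 0 were called higher. By an unadjusted p under 0.05, 3 members were lower and 0 were higher, against 8.32% and 6.82% of all genes. The granulocyte markers fell in the same comparison, and their part in this result was not tested. The call was lost without wild-type array 3 (log2 change -2.29, adjusted p = 0.0581), without Aire-deficient array 2 (-2.38, adjusted p = 0.0510) and without a filter on dim signals (-2.58, adjusted p = 0.0847).

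**Figure D1:**
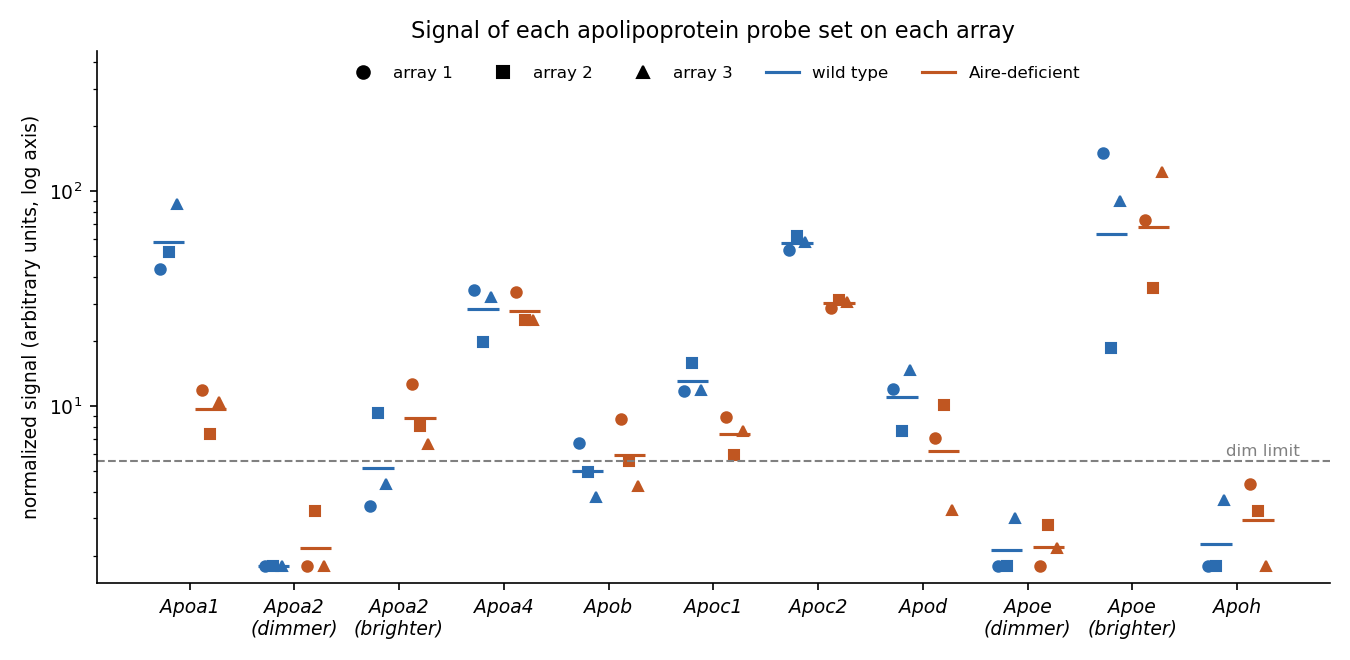
Normalized signal (arbitrary units, log axis) of the 11 apolipoprotein probe sets, with wild-type arrays in blue, Aire-deficient arrays in orange, marker shapes for arrays 1 to 3 and horizontal lines for geometric means; the dashed line is the dim limit of 5.53 and the lowest possible value is the floor of 1.8. Apoa1, Apoc1 and Apoc2 show wild-type arrays above all Aire-deficient arrays, and Apoe spreads from 18.6 to 151 within wild type.

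Its neighbour Apoa4 gave another result. Apoa4 encodes a protein of chylomicrons and high density lipoprotein made mainly by enterocytes. The signals were 34.8, 19.97 and 32.3 in wild-type and 33.8, 25.2 and 25.1 in Aire-deficient cells, all well above the dim limit. The groups overlapped, with the lowest signal on wild-type array 2. The log2 change was -0.02 ± 0.33 (SE) with a 95% interval of -0.76 to 0.71 (limma adjusted p = 0.979), so a change of the size seen for Apoa1 lies outside the interval; the sign turned without scaling, where the change was 0.13 and the median of all genes 0.18.

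Apoa2 encodes the second most abundant protein of high density lipoprotein. Its brighter probe set gave 3.43, 9.25 and 4.35 in wild-type and 12.6, 8.08 and 6.68 in Aire-deficient cells. It passed the filter through all 3 Aire-deficient arrays and wild-type array 2, and the groups overlapped because of that array. The log2 change was 0.77 ± 0.51 (SE), with a 95% interval of -0.36 to 1.89 (limma adjusted p = 0.517). The dimmer probe set lay at or under 3.23 on every array.

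Apob, the very large scaffold protein of chylomicrons and low density lipoprotein, gave 6.72, 4.92 and 3.77 in wild-type and 8.72, 5.53 and 4.25 in Aire-deficient cells. Array 1 of each genotype was above the dim limit, the other signals were at or under it, and the groups overlapped. Apoh, a phospholipid-binding plasma glycoprotein of the liver, was dim on all 6 arrays, with normalized signals of 0.817, 1.3 and 3.65 in wild-type and 4.35, 3.23 and 1.17 in Aire-deficient cells before the floor. Neither passed the filter. Without the filter 9 members were tested, and none was called by limma.

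The C apolipoproteins on chromosome 7 were lower in Aire-deficient cells by less than Apoa1, and neither passed the test. Apoc2 encodes the cofactor that lipoprotein lipase needs to release fatty acids. Its signals were 53.1, 61.5 and 57.8 in wild-type and 28.5, 31.2 and 30.5 in Aire-deficient cells. After normalization the arrays of a group lay close together (SD 0.11 and 0.067, n = 3 each) and the groups were far apart relative to that spread. As deposited, the Aire-deficient signals were wider apart (26.7, 38.4 and 31.5) and the wild-type signals close (52.4, 51.6 and 52.3). The group values were 57.4 and 30.1, a 1.91-fold difference, and the log2 change was -0.93 ± 0.28 (SE), 95% interval -1.55 to -0.31. The adjusted p in the limma fit was 0.137. Over 18 alternatives it ranged from 0.0590, with the replicate number as a block, to 0.381, without Aire-deficient array 2. On unscaled values the log2 change was -0.71 (limma adjusted p = 0.302).

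Apoc1 encodes a small protein that hinders uptake of lipoproteins by their receptors. It gave 11.8, 15.8 and 11.9 in wild-type and 8.91, 5.93 and 7.63 in Aire-deficient cells. All wild-type arrays were above all Aire-deficient arrays, although the nearest values, 11.8 and 8.91, were close. The log2 change was -0.82 ± 0.36 (SE), 95% interval -1.62 to -0.02 (limma adjusted p = 0.317). Together with Apoa1, these make 3 of 7 tested members with every wild-type array above every Aire-deficient array and 0 with the opposite order. Over all genes tested, 10.7% and 10.6% showed these orders.

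Apoe did not separate the genotypes, and its own spread was wide. It encodes the ligand by which remnant particles bind the low density lipoprotein receptor and its relatives. The signals were 151, 18.6 and 89.8 in wild-type and 73.7, 35.3 and 122 in Aire-deficient cells. Array 2 was the lowest of each genotype, and wild-type array 2, with the high 3′ to 5′ actin ratio, was the lowest of all; the part of that ratio in the Apoe signal was not tested beyond the fits given here. The group values were 63.1 (SD 1.58, n = 3) and 68.3 (SD 0.90, n = 3), and the log2 change was 0.11 ± 0.70 (SE) with a 95% interval of -1.43 to 1.66 (limma adjusted p = 0.956). Without wild-type array 2 the change was -0.77 (adjusted p = 0.544), and with the actin ratio as a covariate -0.69 (adjusted p = 0.685). The interval leaves room for a rise or a fall of more than 2-fold. Macrophages also make Apoe: the summed signal of their markers was 372 to 445 in wild type and 270 to 404 without Aire. The part of such cells in the signal of Apoe, Apoc1, Apoc2 or any other member was not tested. Of 16 macrophage markers 9 passed the filter. Lyz2 was present on every array (122 and 120), Cd14 gave 148 and 45.9, Cd68 6.85 and 21.4, and Itgam, Marco, Siglec1 and Mertk were dim on all 6 arrays. The dimmer Apoe probe set stayed under the dim limit on all 6 arrays, at 3.02 or less.

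Apod encodes a lipocalin that binds arachidonic acid and is made in many tissues, and it is no structural relative of the other members. Its signals were 12.1, 7.63 and 14.8 in wild-type and 7.07, 10.1 and 3.3 in Aire-deficient cells. The groups overlapped, and Aire-deficient array 3 fell under the dim limit. The log2 change was -0.84 ± 0.50 (SE), 95% interval -1.94 to 0.25 (limma adjusted p = 0.466). Its estimate was thus near those of Apoc1 and Apoc2, with a larger spread. Over 17 alternatives it ranged from -1.25, with the actin ratio as a covariate, to -0.39, without Aire-deficient array 3. In bulk samples such as these, fewer cells of a type and less RNA per cell cannot be told apart.

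**Figure D2:**
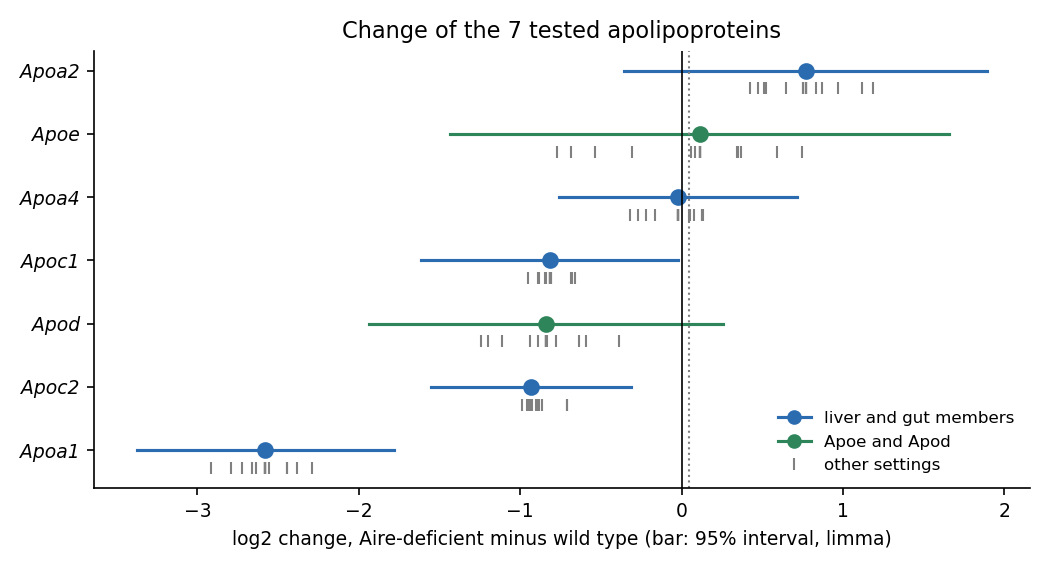
Log2 change (Aire-deficient minus wild type) of the 7 tested apolipoproteins with 95% limma intervals, liver and gut members in blue and Apoe and Apod in green; grey ticks give the change under each other setting, and the dotted line the median of all genes tested, 0.05. The Apoa1 interval ends at -1.78, below the estimates of the other members, while the ticks of Apoe and Apoa4 fall on both sides of 0.

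Liver and gut members were set against Apoe and Apod by taking, on each array, the difference of 2 log2 signals and comparing it between genotypes in a 2-sided exact permutation test. With 3 arrays against 3 the smallest p possible is 0.1, so no pair could pass 0.05. The change of Apoa1 minus that of Apoe was -2.69 ± 1.02 (SE) on the log2 scale, and minus that of Apod -1.74 ± 0.68. For both pairs the arrays of the genotypes did not overlap, and the exact p was 0.1 (0.5 after Benjamini-Hochberg adjustment over the 10 pairs). The other 8 pairs overlapped. Against Apoe the differences were -1.05 for Apoc2, -0.93 for Apoc1, -0.14 for Apoa4 and 0.66 for Apoa2 (exact p of 0.5 to 0.9), and that of Apoc2 ranged from -1.73 to -0.11 with an array left out. Against Apod they were -0.09 for Apoc2, 0.02 for Apoc1, 0.82 for Apoa4 and 1.61 for Apoa2 (exact p of 0.2 to 1).

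Genes beside the members were read from the same fit. On chromosome 9 the nearest tested gene before Apoa1 was Pafah1b2, a subunit of a platelet activating factor hydrolase, with 33.3 in wild type and 31.9 without Aire (log2 change -0.06 ± 0.35, adjusted p = 0.951). Beyond Apoa4 lay Apoa5, a regulator of plasma triglyceride, with 5.40 and 6.35 (0.23 ± 0.63, adjusted p = 0.901). Pafah1b2 lay 4 places before Apoa1 in the gene order and Apoa4, the nearest tested gene after it, 2 places away. The estimates of both lay near 0, but neither gene directly beside Apoa1 was tested. That of Apoa5 was imprecise, with arrays of each genotype on both sides of the dim limit. Its signals were 8.17, 9.35 and 2.07 in wild-type and 5.425, 9.42 and 5.02 in Aire-deficient cells. On chromosome 7, Clptm1 before Apoc2 gave 82.9 and 55.9 (-0.57 ± 0.41, adjusted p = 0.554), and Nectin2, a cell adhesion molecule beyond Apoe, gave 35.3 and 27.7 (-0.35 ± 0.29, adjusted p = 0.62). Apoc4, between Apoc2 and Apoc1, was dim on all 6 arrays, at 0.57 to 4.73.

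The nearest tested genes around the other members, some of them many places away in the gene order, also held no called gene. Next to Apoa2 in the gene order, Fcer1g, the signalling chain of several Fc receptors, gave 1.8, 1.8 and 4.97 in wild-type and 10.8, 7.73 and 16.8 in Aire-deficient cells (at least 2.02-fold higher against the dim limit, limma adjusted p = 0.103). On its other side, 2 places away, Nr1i3, a nuclear receptor of the liver, gave 11.96 and 14.1. Ldah, a lipid droplet protein 2 places from Apob, gave 6.92 and 16.8 (1.28 ± 0.45, limma adjusted p = 0.208), and Atad2b, 27 places away on the other side, gave 26.8 and 29.6. Around Apod, the adjacent Ppp1r2 gave 15.7 and 18.1 and Dlg1, 12 places away, 85.0 and 122. Around Apoh, Prkca at 5 places gave 74.5 and 108 and Gna13 at 21 places 30.4 and 38.3.

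**Figure D3:**
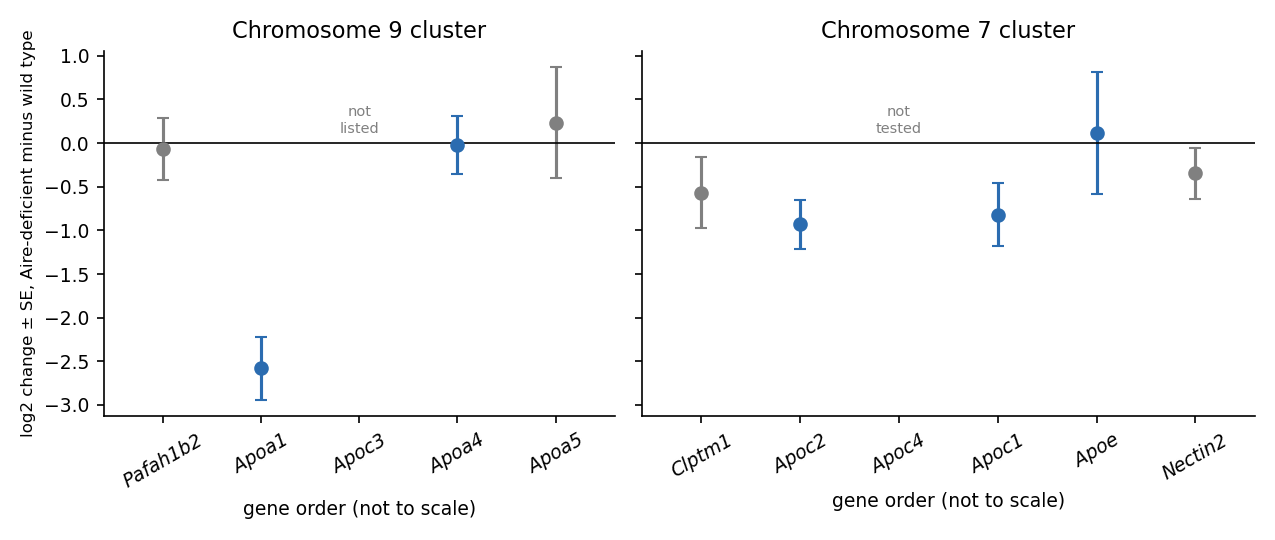
Log2 change ± SE (Aire-deficient minus wild type) of genes in their order on chromosomes 9 and 7, members in blue and other genes in grey, with spacing not to scale; Apoc3 is not in the array's annotation and Apoc4 was too dim to test. Apoa1 lies at -2.58, with Pafah1b2 (4 places away in the gene order) and Apoa4 (2 places away) near 0. Apoc2 and Apoc1 lie at -0.93 and -0.82, in the same cluster as Apoe at 0.11. Genes drawn side by side are not always adjacent.

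The difference between genotypes enters each correlation between members over the 6 arrays. Pearson's r of log2 signal was 0.95 between Apoa1 and Apoc2, 0.89 between Apoa1 and Apoc1 and 0.88 between Apoc1 and Apoc2. Apod, whose estimate was also lower, had r of 0.57 with Apoa1 and Apoc2 and 0.31 with Apoc1. Within the Aire-deficient arrays Apoa1 was lowest on array 2, where Apoc2 was highest. Between Apoa1 and Apoe r was 0.01, and between Apoa1 and Apoa4 it was 0.12. The tested genes most like Apoa1 were Cma2, Omt2b and Fabp2 (r = 0.99 for each). All were called lower (at least 2.97-fold, 2.08-fold and 7.06-fold against the dim limit), a direction that choice by likeness to Apoa1 favours. These genes were dim on all Aire-deficient arrays and passed the filter through wild type alone. The tested genes most like Apoe were Bzw1, Cnih1 and Eif1ax (r = 0.98 for each), with changes of -0.16, 0.06 and -0.05. With 5950 genes and 6 arrays, high values of r arise readily, and they are given as a description.

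The other genes of lipoprotein biology were taken from lists written from textbook knowledge. In the list of further apolipoproteins and serum amyloid A, 2 of 4 tested genes fell and 0 rose (median log2 change -1.09, against 0.05 for all genes). Without the filter on dim signals the median was -0.45 and 0 were called by limma. For this list and those that follow, the shares of all tested genes called lower and higher were 1.33% and 0.387%. Saa3, an acute phase protein that rides on high density lipoprotein, fell from 969.9, 1185.2 and 750.1 to 398.6, 433.8 and 305.8 (-1.34 ± 0.26, limma adjusted p = 0.0350), and Saa2 fell from 126 to 43.2 (-1.55 ± 0.32, adjusted p = 0.0406). Neither call held on unscaled values (adjusted p = 0.103 and 0.0683) or with any 1 of the 6 arrays left out (0.0612 to 0.123 for Saa3, 0.0709 to 0.198 for Saa2). A second probe set of Saa2 gave 24.4 and 15.7 with overlap. Clu, apolipoprotein J, gave 66.6 (30.95 on array 2) in wild type and 37.4 (48.8, 28.9 and 37.2) without Aire (-0.83 ± 0.47, adjusted p = 0.453), with array 2 lowest in each genotype as for Apoe.

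Of 11 tested genes of lipoprotein assembly 2 fell and 0 rose (median 0.13); with the replicate block 1 also rose. These were the fatty acid binding proteins of gut and liver: Fabp2 fell from 39.1 to 3.35, at least 7.06-fold against the dim limit, and Fabp1 fell from 46.0, 51.8 and 43.2 to 13.9, 9.15 and 20.1 (-1.78 ± 0.35, limma adjusted p = 0.0365). A second Fabp1 probe set was dim throughout, and the Fabp1 call did not hold with the mean of both (adjusted p = 0.395) and held in 1 of 6 fits with an array left out, that without Aire-deficient array 3; the Fabp2 call held in all 6. Mttp, the transfer protein that loads lipid onto apolipoprotein B, was dim on 5 arrays and gave 5.85 on Aire-deficient array 1. Dgat1, an enzyme of triglyceride synthesis, gave 44.0 and 30.2 without overlap (adjusted p = 0.424), Sar1b, a GTPase of chylomicron export, 29.5 and 80.9 (adjusted p = 0.311), and Lman1, a cargo receptor of the early secretory pathway, 60.4 and 99.4 (adjusted p = 0.354).

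Receptors and plasma enzymes held no called gene. Of 8 tested receptors 0 passed, also at an unadjusted p under 0.05 (median -0.24): Scarb1, the receptor of high density lipoprotein, gave 17.2 and 9.89 without overlap (limma adjusted p = 0.344), Sorl1 gave 5.97 and 10.6 (0.413) and Lrp1 gave 5.26 and 11.4 (0.413). Of 9 tested lipases and remodelling proteins 0 passed by either measure (median -0.27). Lpl, the lipase that Apoc2 activates, gave 52.6, 36.5 and 43.6 in wild-type and 19.1, 20.1 and 52.4 in Aire-deficient cells (adjusted p = 0.476), Pon3 gave 7.25 and 13.2 (0.473) and Lmf1 4.73 and 8.98 (0.513). For Lpl, 2 Aire-deficient arrays lay below all wild-type arrays and the third did not.

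Among 9 tested genes of cholesterol efflux and the LXR pathway, 1 fell and 1 rose (median -0.28). Scd1, a fatty acid desaturase, fell from 220 to 93.9 (-1.23 ± 0.26, limma adjusted p = 0.0440), but its other probe sets gave 170 and 93.7 and, in the opposite direction, 13.5 and 25.5, and the call did not hold on unscaled values (adjusted p = 0.171). Npc2, which carries cholesterol out of lysosomes, rose from 717, 617 and 727 to 1586, 1442 and 1153 (1.01 ± 0.22, adjusted p = 0.0475). With any 1 array left out neither was called (0.0790 to 0.186 for Scd1, 0.0821 to 0.209 for Npc2). Fasn, Nr1h3 and Npc1 gave 27.2 and 16.1, 11.2 and 7.37, and 126 and 97.7, all with overlap. Of 13 tested genes of sterol synthesis 0 passed, also at an unadjusted p under 0.05 (median 0.15); Cyp51 gave 24.8 and 15.2 (adjusted p = 0.347), Mvk 14.6 and 7.65 (0.441) and Mvd 2.84 and 6.15 (0.476).

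Transcription factors that drive apolipoprotein genes in liver and gut held no called gene. Of 26 measured regulators 13 were tested and 7 were dim on all 6 arrays; limma called 0, with 1 lower at an unadjusted p under 0.05 (median -0.56, and -0.22 without the filter). Hnf4a, a main activator of these promoters in hepatocytes, was dim on all 6 arrays, at 1.13 to 3.3. Foxa2 gave 8.26, 8.89 and 1.96 in wild-type and 0.8, 1.27 and 0.57 in Aire-deficient cells and was not tested. Esrra gave 21.0 and 12.6 without overlap (limma adjusted p = 0.328), Cebpa 51.6 and 31.2 (0.355) and Gata4 9.23 and 4.76 (0.409).

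Some of the other listed secreted proteins of hepatocytes were lower, as Apoa1 was. Of 16 tested genes on that list 3 fell and 0 rose, and 10 showed all wild-type arrays above all Aire-deficient arrays (median -1.08). Of all genes tested, 1.33% were called lower and 10.7% showed that order. The called genes Fgg, Itih3 and Ambp and the uncalled Fgb, Rbp4 and Fga were dim on all 3 Aire-deficient arrays. They passed the filter through wild type alone, which favours the direction seen, and all of them are among these 10. Without the filter the list had 1 gene lower and 1 higher (median -0.66), and with the replicate block 7 were lower. Besides Fgg and Itih3, Ambp, the precursor of a plasma protease inhibitor, fell from 29.1, 14.3 and 12.4 to 2.83, 1.8 and 1.8, at least 3.12-fold. With an array left out, the calls of Ambp and Itih3 held in 2 of 6 fits each and that of Fgg in all 6. Hp, haptoglobin, gave 43.7 and 12.7 (limma adjusted p = 0.0569), Fgb 9.72 and 1.8 (0.0592), and Rbp4, the plasma carrier of retinol, 10.1 and 1.89 (0.0626). Alb was not tested, with 12.4, 4.82 and 13.2 in wild-type and 0.92, 4.25 and 3.08 in Aire-deficient cells. Of 11 tested genes on the list named for enterocytes, 2 fell and 0 rose (median -0.68, and -0.55 without the filter). These were Tff3 (75.5 and 2.24, at least 13.6-fold) and Fabp2, which is also on the lipoprotein assembly list. Both were dim on all 3 Aire-deficient arrays and passed the filter through wild type alone. Muc13 gave 88.0 and 37.6 (limma adjusted p = 0.15), Lgals4 111.7 and 69.7 (0.329) and Vil1 33.3 and 19.5 (0.391). The median of the apolipoproteins tested was that of Apoc1, -0.82, against 0.05 for all genes. Of the 7, 5 lay below 0, among them Apoa4 at -0.02, whose sign turned in 6 of 18 alternatives.

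**Figure D4:**
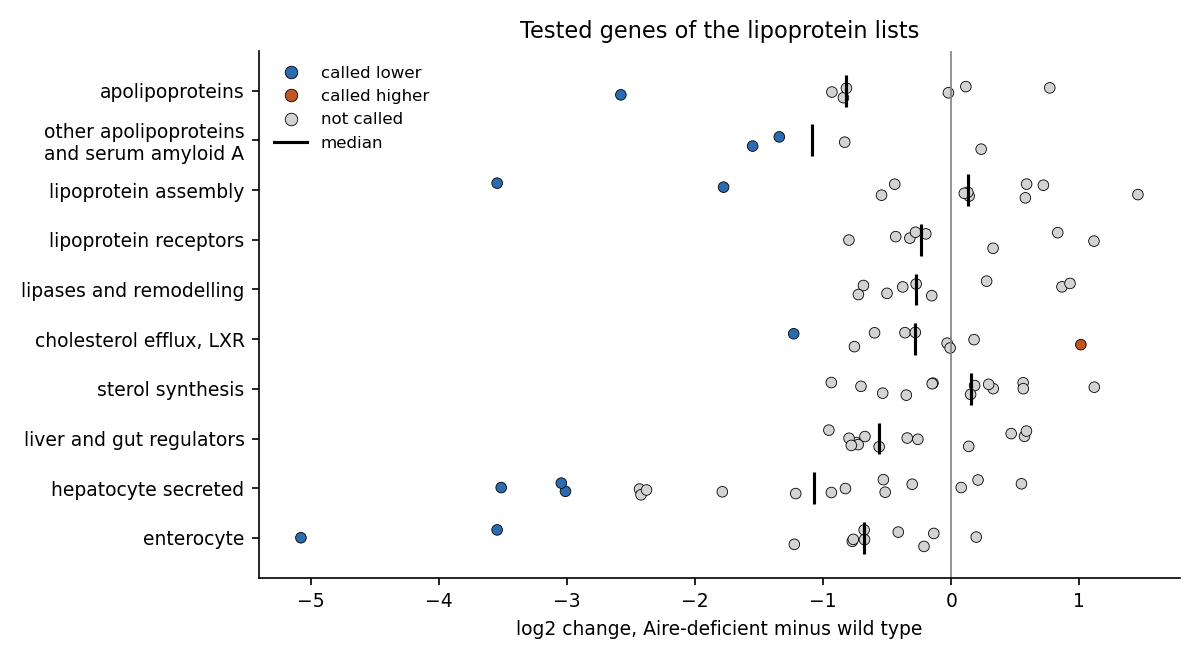
Log2 change (Aire-deficient minus wild type) of each tested gene of the apolipoproteins and of 9 lists, with genes called lower in blue, called higher in orange, others in grey, and a black line at the median of each list. Apoa1 at -2.58 lies apart from the other apolipoproteins; the places of genes dim in a group, such as Itih3 (-3.01, and -1.39 with the floor at the 40th percentile), are set by the floor.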

How the data were processed

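RNA of sorted medullary thymic epithelial cells was hybridised to 1-colour oligonucleotide arrays. The values deposited by the authors are linear signal intensity per probe set; the labels do not say how these were computed. The 66 control probe sets among 12488 were removed. Since 2% trimmed means of the deposited arrays differed (19.7 to 27.2), arrays were quantile normalized, floored at the 20th percentile (1.8) and log2 transformed; the brightest probe set stood for each gene. Platform annotation gave 10833 probe sets 1 gene. The genotypes were tested in R 4.3.3 by limma 3.58.1 (lmFit, eBayes with a variance trend, 2-sided, Benjamini-Hochberg over 5950 genes, threshold 0.05), checked on simulated data. A fold is given as "at least" where a group was dim throughout (under 5.53), as the brighter group's geometric mean over that limit. The floor shortens folds of dim genes.

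Deviations of same-numbered arrays correlated at 0.37, 0.20 and 0.19, which meets the criterion for pairing, although no label explains the numbers. The main fits and the permutation tests are unpaired, and the replicate block was an alternative. The members and lists were chosen with earlier results of these data known. Genes named are all members, their neighbours, the genes most like Apoa1 and Apoe over 6 arrays, called genes and up to 3 others of each pathway list by smallest p. The rule named 3 markers per marker list; the single markers printed, the Apoa4 promoter and the dim genes Alb, Mttp, Hnf4a, Foxa2 and Apoc4 were chosen after their values were seen. The Apoe promoter, which the rule named, is left out because its windows overlap transcripts. Promoter entries came from RefSeq, GRCm38.p6. The alternatives changed the scaling, the floor, the filter, the variance model, the choice of probe set and the arrays used, or added the replicate block or a 3′ bias term. Figures were drawn with matplotlib 3.10.9.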

Additional observations from a re-analysis of the deposited data

How the results depend on the processing

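Over 18 alternatives the log2 change of Apoa1 ranged from -2.91 to -2.29, past the threshold in 15 of them (adjusted p 0.00133 to 0.0847). Apoc2, Apoc1, Apod and Apoa2 kept their direction and stayed uncalled wherever tested. With the replicate number as a block no member's call changed (Apoa1 adjusted p = 0.0016), while calls over all genes rose from 79 lower and 23 higher to 220 and 154. The members called lower numbered 0 without a filter on dim signals, and 0 to 1 with an array left out. Apoe turned to -0.53 with array weights and -0.69 with the 3′ term, and ranged from -0.77 to 0.74 with an array left out. Unscaled values and median scaling each turned Apoa4 to 0.13, and ranged from -0.27 to 0.13 with an array left out. Both put the median of all genes at 0.18, so relative to it Apoa4 stayed below 0. The difference of Apoc2 and Apod turned to 0.13 under both scalings and that of Apoc1 and Apod to -0.23 with a floor at the 40th percentile. With an array left out the differences ranged from -0.55 to 0.24 (Apoc2 and Apod), -0.45 to 0.54 (Apoc1 and Apod), -0.27 to 1.96 (Apoa2 and Apoe), -0.61 to 0.50 (Apoa4 and Apoe), -1.63 to 0.090 (Apoc1 and Apoe), and -1.73 to -0.11 (Apoc2 and Apoe). Those of Apoa1 stayed at -3.53 to -1.89 against Apoe and -2.25 to -1.18 against Apod. The causes were not tested. Calls over all genes numbered 12 lower and 4 higher without a filter and 20 and 1 without Aire-deficient array 2, against 220 and 154 with the replicate block.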
